A study of Mus musculus with 6 samples.

Results

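The genes described here encode lysosomal hydrolases, their activator proteins and proteins of the lysosomal membrane. The rule took 33 named genes from a table of 31273 gene symbols, and all 33 had a row and reached the mean of 1 TPM required for testing (TPM is a length-corrected share of all transcripts with a fixed total per library). They were measured by sequencing of polyadenylated RNA from mouse left ventricle. There were 3 libraries labelled with a control genotype and 3 labelled with RBM20 overexpression restricted to cardiomyocytes. RBM20 is an RNA-binding protein that controls splicing in heart muscle. The design text describes a knock-in of RBM20 that tamoxifen switches on in cardiomyocytes. The age of the mice, the tamoxifen schedule, the driver of the recombinase and whether the controls carried it or received tamoxifen were not given in the sources used here. Libraries are called control 1 to 3 and overexpression 1 to 3.

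Lysosomes are acidic organelles in which hydrolases take apart sphingolipids, glycosaminoglycans, glycoproteins, glycogen, cholesteryl esters and proteins delivered by endocytosis and autophagy. Most of the soluble enzymes reach the lysosome by mannose 6-phosphate receptors, and several of them need small activator proteins that lift lipids out of membranes. The loss of many of these enzymes causes a storage disease, and in the heart the loss of Gaa, Gla or Lamp2 is known for thickened or failing muscle. Macrophages are rich in the same proteins, so their level in whole ventricle reflects several cell types. In such bulk tissue, fewer cells of a type and less RNA per cell cannot be told apart.

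Rbm20 followed the genotype labels, with 74.9, 90.9 and 79.5 TPM in control and 321, 913 and 907 TPM in overexpression libraries. The titles carry cki on control-labelled and cre on overexpression-labelled samples, and the labels do not say what these stand for. Esr1 is the estrogen receptor gene of which tamoxifen-controlled recombinases carry a part. It was between 0.234 and 0.415 TPM in control and between 53.0 and 218 TPM in overexpression libraries. Esr1 and Rbm20 separated the same libraries, so the part of such a recombinase and that of RBM20 cannot be told apart here. Overexpression 1 stood apart in sex, since Ddx3y of the Y chromosome reached 88.1 TPM there against 0 elsewhere, and Xist was 0.0172 TPM there against 34.4 to 62.6 TPM elsewhere. Estimated library size was 41640000 to 90050000 counted reads, and the share of mitochondrially encoded transcripts was 48.3% to 52.0% in controls, against 36.7% to 41.0% under overexpression. TPM has a fixed total, so the level of each gene depends on all others. The median log2(TPM + 1) difference over the 12404 tested genes was 0.55, and it was 0.32 over the 13420 genes tested once mitochondrially encoded genes were removed. The members are therefore described also after rescaling every library by the median of its ratios to the gene averages, which brought that median to 0.014. The presence of heart muscle was checked with 12 cardiomyocyte markers, which summed to 54694 to 61035 TPM in control and 42420 to 48668 TPM in overexpression libraries. Of these 12 markers 2 were higher and 6 lower in TPM, and 0 and 10 after rescaling. Among all tested genes 59.0% were higher and 9.09% lower in TPM, and 22.2% and 24.0% after rescaling. The 4 atrial markers summed to 2.33 to 4.71 TPM in control and to 60.3, 14.1 and 153 TPM in overexpression 1, 2 and 3, and their part in the results below was not tested.

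As a group the lysosomal genes moved about as far as the average gene, and the members differed from one another. In deposited TPM 20 of the 33 were higher with overexpression and 1 was lower at an adjusted p below 0.05 (limma), and 12 did not pass. Of all tested genes 59.0% were called higher and 9.09% lower. The median log2 difference was 0.50 over the 33 members against 0.55 over all tested genes, and 15 members lay above the median of all genes. After rescaling, 7 members were higher and 8 lower, beside 22.2% higher and 24.0% lower among all tested genes, with medians of -0.072 and 0.014. The members' shares are thus near the background in each direction. The 7 members that rose under both scalings were Lgmn, Cd63, Gusb, Gm2a, Asah1, Grn and Hexa, and Idua was the member that fell under both. Another 7 members, Psap, Smpd1, Gaa, Ppt1, Npc1, Ids and Mcoln1, did not pass in TPM and were lower after rescaling. Rescaling moved every difference downward, so for decreases TPM is the stricter scale and for increases the rescaled values are.

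**Figure D1:**
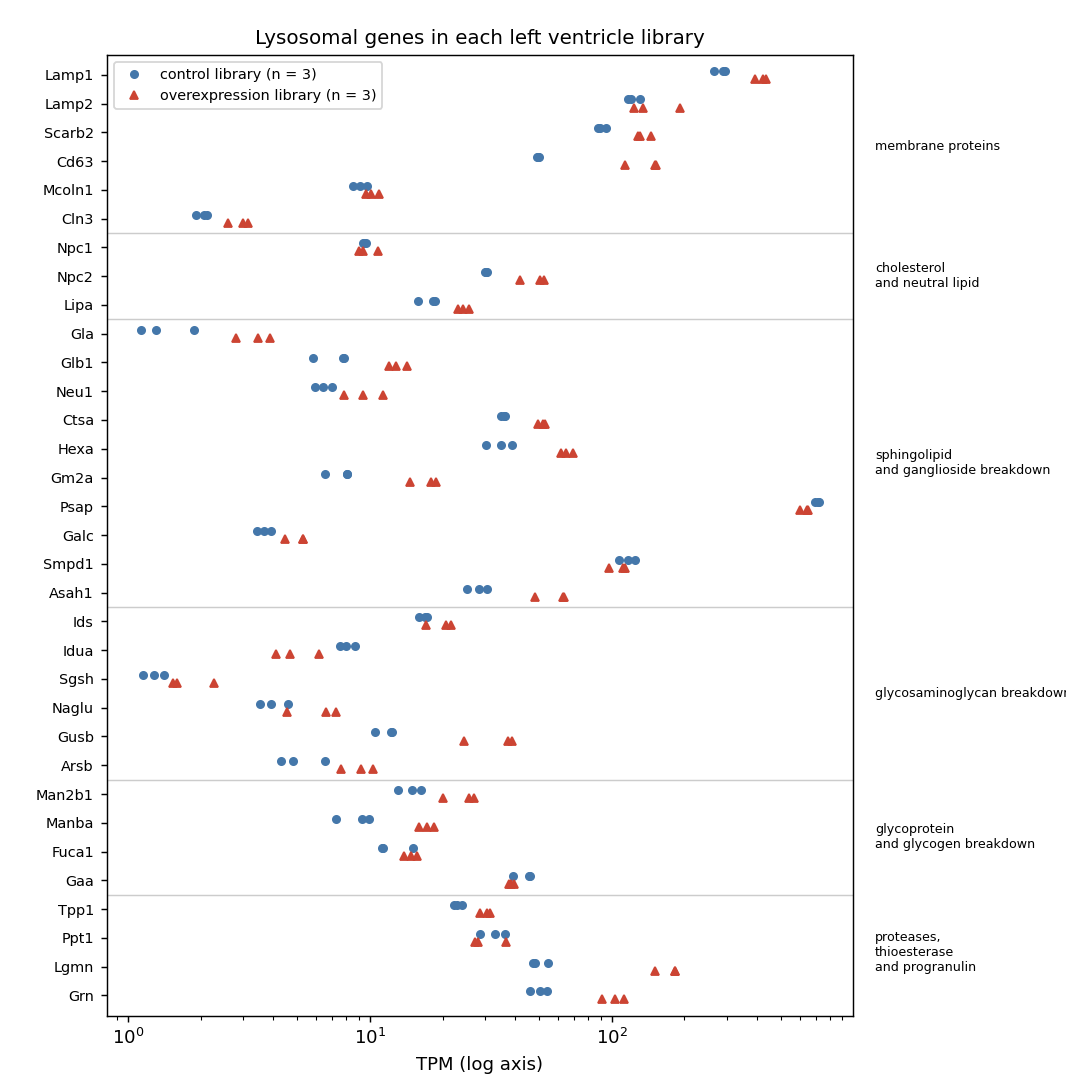
TPM of the 33 lysosomal genes in each library, on a log axis, with circles for the 3 control and triangles for the 3 overexpression libraries, grouped by role. Lgmn, Cd63 and Gusb show wide gaps between the groups, Psap sits highest in every library, and the groups overlap in 9 of the 33 genes.

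Deposited TPM of the overexpression libraries lay above all control libraries in 22 members, below them in 2 (Psap and Idua) and overlapped in 9. Among all tested genes 62.1% lay above and 10.4% below without overlap. All levels were compared per length, and in the control group they ran from 1.28 ± 0.129 TPM for Sgsh to 709 ± 12.5 TPM for Psap (SD, n = 3 each). The order at the top was Psap, Lamp1, Lamp2, Smpd1 and Scarb2, of which Lamp2 and Smpd1 overlapped in the control libraries.

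**Figure D2:**
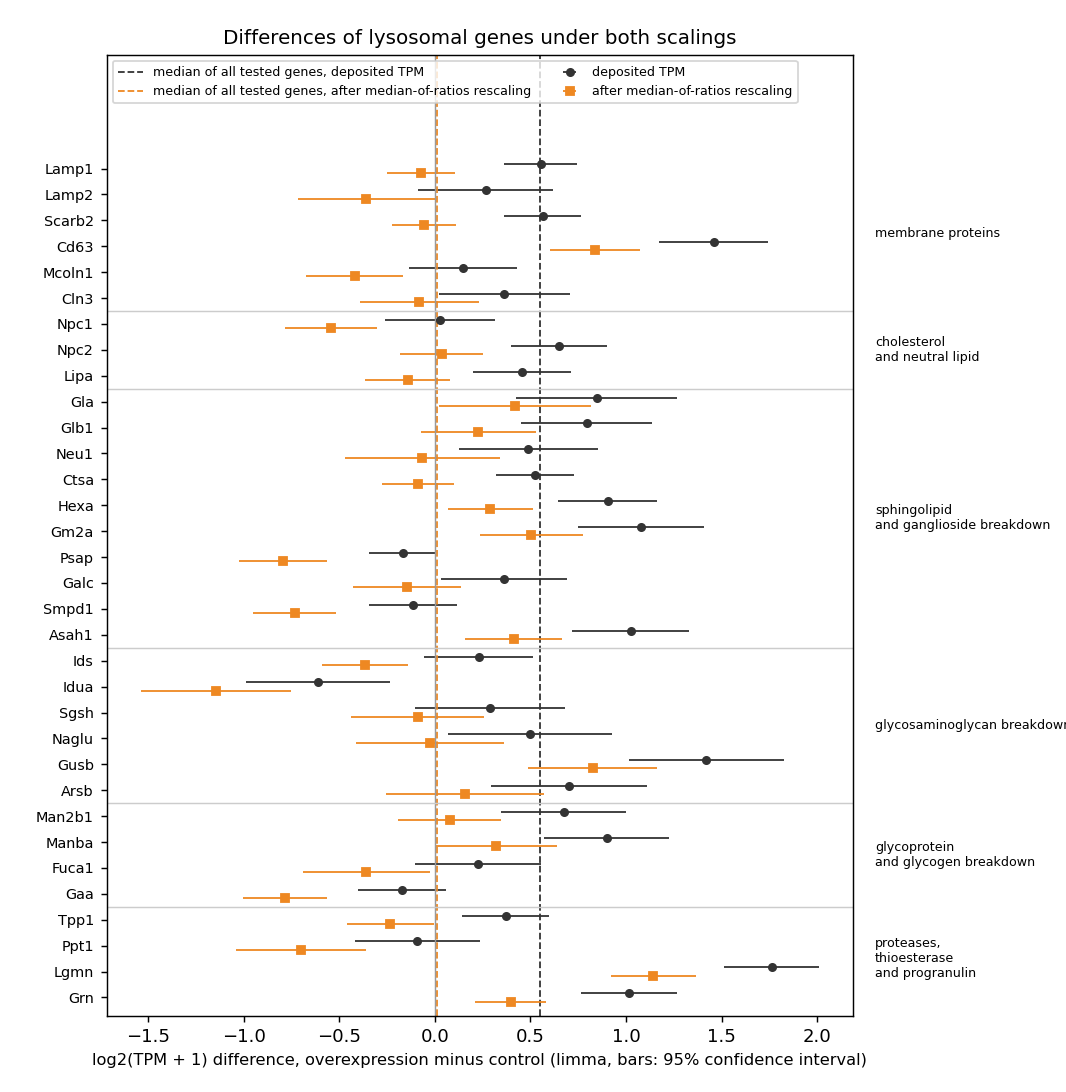
Difference of each lysosomal gene on the log2(TPM + 1) scale, overexpression minus control, with 95% confidence intervals from limma, in deposited TPM (circles) and after rescaling (squares). Dashed lines mark the medians of all tested genes at 0.55 and 0.014. Lgmn, Cd63 and Gusb lie right of both lines and Idua left of both.

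Promoter windows of the members were read to show what they share in sequence. TFEB, the transcription factor known for switching on lysosomal genes, binds sites built around the letters CACGTG. RefSeq promoter windows of 300 bases on GRCm38.p6 (250 before and 50 after a start site) matched 31 of the 33 members, some with more than 1 window. CACGTG, which reads the same on both strands, was in a window of 10 members (32.3%): Cln3, Ctsa, Gaa, Gla, Glb1, Lamp1, Lgmn, Mcoln1, Naglu and Sgsh. It was in 7.15% of all 32851 windows and in 11.8% of the 9663 tested genes with a window. The longer TCACGTGA, which contains CACGTG, was in windows of 4 members (12.9%), namely Cln3, Ctsa, Gla and Mcoln1, against 2.24% of tested genes. Of the 10 members with CACGTG 6 were higher and 0 lower in TPM, and of the 21 without it 13 and 1. Their median log2 differences were 0.51 and 0.49. After rescaling 1 was higher and 2 lower of the 10, and 5 and 5 of the 21. Among all tested genes 59.0% were higher and 9.09% lower in TPM, and 22.2% and 24.0% after rescaling. These counts thus show nothing particular to members with or without CACGTG. The windows printed here are those of Lamp1, the most abundant membrane protein gene, with 4 copies, of Gla and Ctsa, whose levels rose in TPM, of Mcoln1, whose level did not, and of the outer start site of Lgmn, which had the largest increase and holds no copy there. They run 5′ to 3′ on the gene's strand, and capitals mark CACGTG or TCACGTGA.
Lamp1 promoter, chr8:13158911-13159210, plus strand: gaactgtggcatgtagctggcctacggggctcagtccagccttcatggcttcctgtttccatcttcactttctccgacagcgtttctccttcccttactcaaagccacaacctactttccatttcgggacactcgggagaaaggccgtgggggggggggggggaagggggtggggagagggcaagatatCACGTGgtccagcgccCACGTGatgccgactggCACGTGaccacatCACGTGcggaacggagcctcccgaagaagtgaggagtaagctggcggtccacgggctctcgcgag
Gla promoter, chrX:134600956-134601255, minus strand: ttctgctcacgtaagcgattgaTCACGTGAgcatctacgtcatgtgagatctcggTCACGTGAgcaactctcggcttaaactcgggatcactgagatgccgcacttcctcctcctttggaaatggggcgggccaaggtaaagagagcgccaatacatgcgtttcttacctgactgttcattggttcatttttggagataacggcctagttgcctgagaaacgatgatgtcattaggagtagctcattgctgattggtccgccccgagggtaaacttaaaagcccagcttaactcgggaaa
Ctsa promoter, chr2:164833523-164833822, plus strand: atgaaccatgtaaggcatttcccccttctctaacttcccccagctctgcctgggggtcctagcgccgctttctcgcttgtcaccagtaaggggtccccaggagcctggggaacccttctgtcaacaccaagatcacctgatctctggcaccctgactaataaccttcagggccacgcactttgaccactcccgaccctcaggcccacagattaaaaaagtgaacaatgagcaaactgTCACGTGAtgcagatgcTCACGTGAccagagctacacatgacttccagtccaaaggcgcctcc
Mcoln1 promoter, chr8:3500269-3500568, plus strand: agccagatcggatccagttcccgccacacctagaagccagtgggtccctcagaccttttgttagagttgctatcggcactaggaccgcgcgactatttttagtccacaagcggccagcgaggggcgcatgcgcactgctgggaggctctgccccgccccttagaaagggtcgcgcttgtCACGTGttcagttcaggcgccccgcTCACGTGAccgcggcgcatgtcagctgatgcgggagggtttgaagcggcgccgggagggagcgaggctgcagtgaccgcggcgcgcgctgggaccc
Lgmn promoter, chr12:102439679-102439978, minus strand: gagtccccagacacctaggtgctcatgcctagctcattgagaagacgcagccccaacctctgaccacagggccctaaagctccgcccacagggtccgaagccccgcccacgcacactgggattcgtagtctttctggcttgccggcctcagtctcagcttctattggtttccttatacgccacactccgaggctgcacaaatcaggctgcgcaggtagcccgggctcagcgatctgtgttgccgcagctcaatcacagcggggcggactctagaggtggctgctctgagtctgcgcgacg
Counted from the start site, the first marked base lies at position -61 in Lamp1, at position -228 in Gla, -13 in Ctsa and -71 in Mcoln1. The inner window of Lgmn holds 1 copy, at position -49 from its own start. The Ctsa window printed is the inner one, and the outer window of Ctsa, not printed, holds no copy. These matches describe letters in a window and not bound sites.

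Among membrane proteins, Cd63 rose under both scalings and Lamp1 and Scarb2 rose in TPM. CD63 is a tetraspanin of lysosomes and exosomes. On the plus strand of chromosome 10, its gene spans 128900989 to 128912822 (GRCm38, GENCODE M21). Cd63 had 49.9, 49.6 and 49.2 TPM in control and 152, 152 and 113 TPM in overexpression libraries. The overexpression libraries were all far above the tightly grouped controls, with overexpression 3 the lowest of them. The 2.81-fold increase gave a log2 difference of 1.46 (95% CI 1.17 to 1.74, adjusted p = 4.25e-05) in TPM and 0.84 (adjusted p = 0.000399) after rescaling, and it ranked 861 of 12404 among increases. Reads from the pseudogene Cd63-ps could not be separated from it here.

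Lamp1, the major glycoprotein that lines the lysosomal membrane, was at 293, 289.8 and 266 TPM in control and 421, 433 and 393 TPM in overexpression libraries. The groups did not overlap in TPM (log2 difference 0.55, SE 0.0832, adjusted p = 0.000542), but after rescaling the difference was -0.072 (95% CI -0.25 to 0.11, adjusted p = 0.479). Scarb2, which encodes the abundant membrane glycoprotein LIMP-2, behaved likewise, with 1.48-fold higher TPM and a rescaled difference of -0.058 (95% CI -0.23 to 0.11). For both genes the rescaled interval spans 0 and reaches no further than 0.25 below it.

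Lamp2, needed for the fusion of autophagosomes with lysosomes, overlapped between groups. It stood at 121, 131 and 117 TPM in control and 193, 135 and 124 TPM in overexpression libraries, where overexpression 1 alone was high. Its log2 difference of 0.26 did not pass (adjusted p = 0.158), and the rescaled difference of -0.36 did not pass either (adjusted p = 0.0946) but did without overexpression 1 (-0.55, adjusted p = 0.00182). Gene totals do not separate the splice forms of Lamp2. Mcoln1, the calcium channel TRPML1 of the lysosomal membrane, was at 8.49, 9.71 and 9.15 TPM in control and 10.9, 10.1 and 9.63 TPM in overexpression libraries. Its TPM difference of 0.15 did not pass (adjusted p = 0.312), while it was lower after rescaling (-0.42, adjusted p = 0.0154), a call that ended without control 3 (adjusted p = 0.0562) or overexpression 2 (0.0601). Cln3, a membrane protein lost in juvenile Batten disease, was low at 1.91, 2.11 and 2.07 TPM in control and 3.14, 2.99 and 2.58 TPM in overexpression libraries. The groups did not overlap, but the difference of 0.36 missed the threshold (adjusted p = 0.058), and it passed without overexpression 3 (0.42, adjusted p = 0.0493). After rescaling the Cln3 difference was -0.080 (adjusted p = 0.656).

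The genes that handle cholesterol differed from each other. NPC2 binds free cholesterol inside the lysosome and hands it to the membrane protein NPC1 for export. Npc2 was at 30.6, 30.1 and 30.4 TPM in control and 52.4, 50.6 and 42.0 TPM in overexpression libraries, a rise in TPM without overlap (log2 difference 0.65, adjusted p = 0.00102) that did not pass after rescaling (0.036, 95% CI -0.18 to 0.25). Npc1 was at 9.38, 9.46 and 9.65 TPM in control and 9.37, 10.8 and 8.99 TPM in overexpression libraries, and its groups overlapped. The TPM difference of Npc1 was 0.026 (adjusted p = 0.862), and it was lower after rescaling (-0.54, adjusted p = 0.00376). The ratio of Npc2 to Npc1 within a library, which no scaling of a library can change, was 3.27, 3.18 and 3.15 in control and 5.60, 4.69 and 4.67 in overexpression libraries. Lipa, the acid lipase that splits cholesteryl esters and triglycerides, rose 1.39-fold in TPM (adjusted p = 0.00663) and had a rescaled difference of -0.14 (adjusted p = 0.261).

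The 10 genes of sphingolipid and ganglioside breakdown held both the most abundant member and several that rose. Of them 7 were higher in TPM and 0 lower, and after rescaling 3 were higher and 2 lower, counts near the shares of all tested genes (59.0% and 9.09% in TPM, 22.2% and 24.0% after rescaling). Psap encodes prosaposin, the precursor of the saposins that present lipids to the hydrolases. Psap was at 713, 719 and 695 TPM in control and 644, 600.4 and 650.1 TPM in overexpression libraries. All 3 overexpression libraries lay below all controls, yet the TPM difference of -0.17 did not pass (95% CI -0.34 to 0.00, adjusted p = 0.077). Psap was lower after rescaling (-0.79, adjusted p = 0.00049). Under quantile normalization, another scaling, its difference was -0.20 and did not pass (adjusted p = 0.0773). Smpd1, acid sphingomyelinase, which makes ceramide from sphingomyelin, was at 117, 125 and 107 TPM in control and 97.6, 114 and 111 TPM in overexpression libraries. The groups overlapped in TPM (difference -0.11, adjusted p = 0.344), and the rescaled difference was -0.73 (adjusted p = 0.000522).

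Asah1, acid ceramidase, which removes ceramide, was at 30.4, 28.3 and 25.3 TPM in control and 63.2, 63.3 and 48.3 TPM in overexpression libraries. All overexpression libraries were above all controls, and Asah1 rose 2.08-fold (log2 difference 1.02, SE 0.133, adjusted p = 0.000269) and by 0.41 after rescaling (adjusted p = 0.0169). The rescaled call of Asah1 ended without control 2 (adjusted p = 0.0604), control 3 (0.0733) or overexpression 2 (0.0533). Within a library the ratio of Asah1 to Smpd1 was 0.259, 0.226 and 0.237 in control and 0.648, 0.555 and 0.433 in overexpression libraries, 2.27-fold higher on average and without overlap. Such a ratio, like that of Npc2 to Npc1, restates the differences of its genes. How often pairs of tested genes separate in this way was not counted.

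Hexa, the alpha subunit of hexosaminidase, and Gm2a, the activator that presents GM2 ganglioside to it, both rose. Gm2a was at 8.04, 8.06 and 6.56 TPM in control and 17.9, 18.7 and 14.7 TPM in overexpression libraries. That is 2.26-fold without overlap (log2 difference 1.08, adjusted p = 0.000304, and 0.50 after rescaling, adjusted p = 0.00887). Hexa was at 34.8, 38.6 and 30.2 TPM in control and 61.6, 69.0 and 65.0 TPM in overexpression libraries. It rose 1.89-fold in TPM (log2 difference 0.90, adjusted p = 0.000226) and by 0.29 after rescaling (adjusted p = 0.0388). The rescaled call of Hexa ended without control 1, control 3, overexpression 2 or overexpression 3 (adjusted p = 0.0624, 0.157, 0.0805 and 0.106). The ratio of Gm2a to Hexa overlapped between the groups, with control libraries at 0.209 to 0.231 and overexpression libraries at 0.226 to 0.290.

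Ctsa, the protective protein, holds beta-galactosidase (Glb1) and the sialidase Neu1 in a complex. Ctsa rose 1.45-fold, Glb1 1.83-fold and Neu1 1.48-fold in TPM (adjusted p = 0.00104, 0.00173 and 0.0234), and none of these 3 passed after rescaling (differences of -0.090, 0.23 and -0.065). The call of Neu1 ended without control 2 or 3 (adjusted p = 0.0574 and 0.0822), overexpression 1 (0.05001) or overexpression 3 (0.0692). Gla, alpha-galactosidase A, was low, at 1.88, 1.30 and 1.13 TPM in control and 3.45, 3.86 and 2.79 TPM in overexpression libraries. Its rise in TPM (log2 difference 0.85, adjusted p = 0.00357) rests on few reads, an estimated 64 in control 3, and after rescaling the difference of 0.42 missed the threshold (adjusted p = 0.0807) but passed without control 1 (0.57, adjusted p = 0.0253). Galc, galactosylceramidase, was at 3.67, 3.92 and 3.42 TPM in control and 5.29, 5.30 and 4.46 TPM in overexpression libraries. The groups did not overlap, but Galc missed the threshold in TPM (0.36, adjusted p = 0.0503), and it passed without overexpression 3 (0.43, adjusted p = 0.0383). After rescaling the Galc difference was -0.14 (adjusted p = 0.367), and all overexpression libraries then lay below all controls.

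Glycosaminoglycan-degrading enzymes went both ways. Gusb, beta-glucuronidase, was at 12.3, 12.3 and 10.5 TPM in control and 37.3, 38.6 and 24.6 TPM in overexpression libraries. It rose 2.87-fold without overlap (log2 difference 1.42, SE 0.177, adjusted p = 0.000223, and 0.83 after rescaling, adjusted p = 0.00266), with overexpression 3 lowest of its group. Idua, alpha-L-iduronidase, fell. It had 8.69, 7.94 and 7.51 TPM in control and 4.10, 4.68 and 6.19 TPM in overexpression libraries, all of which were below all controls. The log2 difference of Idua was -0.61 (SE 0.165, adjusted p = 0.0104) in TPM and -1.14 (SE 0.17, adjusted p = 0.00113) after rescaling. Idua spans 108660331 to 108684557 on the plus strand of chromosome 5, and its exons share 124 bases with Dgkq and 141 bases with Slc26a1 on the opposite strand. Reads are strand-specific per the labels, but the sources used here do not say if the counting was strand-aware, so reads from these overlaps may be assigned to either gene. Slc26a1 was at 0.0521 to 0.257 TPM in control and 0.0798 to 0.357 TPM in overexpression libraries, and Dgkq at 1.26 to 1.56 and 1.67 to 2.11 TPM.

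The other 4 enzymes of this group were Ids, Arsb, Naglu and Sgsh. Ids, iduronate-2-sulfatase, which acts beside Idua on heparan and dermatan sulfate, was at 15.9, 17.2 and 16.9 TPM in control and 20.6, 21.8 and 17.0 TPM in overexpression libraries. It overlapped in TPM (0.23, adjusted p = 0.13) and was lower after rescaling (-0.36, adjusted p = 0.0164). Leaving out overexpression 3 gave a call in TPM (0.33, adjusted p = 0.0375) and none after rescaling (-0.31, adjusted p = 0.0521), and the rescaled call also ended without control 3 (-0.35, adjusted p = 0.0612). Arsb, arylsulfatase B, rose 1.74-fold in TPM (adjusted p = 0.00774) and had a rescaled difference of 0.16 (adjusted p = 0.507), and 32.3% of its exon bases overlap Gm26527 on the opposite strand. Naglu, which removes N-acetylglucosamine from heparan sulfate, was at 4.60, 3.51 and 3.90 TPM in control and 6.60, 7.24 and 4.54 TPM in overexpression libraries, with overlap. Its call in TPM (0.50, adjusted p = 0.0424) ended without control 2 or 3 or overexpression 1 or 2 (adjusted p = 0.123, 0.105, 0.110 and 0.140). Sgsh, heparan N-sulfatase, was the lowest member, at 1.15, 1.41 and 1.28 TPM in control and 1.54, 2.26 and 1.60 TPM in overexpression libraries, and its difference of 0.29 did not pass (adjusted p = 0.163), nor did that of -0.090 after rescaling (adjusted p = 0.657).

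Among enzymes of glycoprotein and glycogen breakdown, the mannosidase genes rose in TPM and Gaa did not. Gaa, the acid alpha-glucosidase that breaks down glycogen and is lost in Pompe disease, was at 39.3, 45.6 and 45.9 TPM in control and 37.7, 39.4 and 38.4 TPM in overexpression libraries. The groups overlapped by a narrow margin (difference -0.17, 95% CI -0.40 to 0.06, adjusted p = 0.157), and Gaa was lower after rescaling (-0.78, adjusted p = 0.000414). Man2b1 and Manba, the alpha- and beta-mannosidases, rose 1.64-fold and 1.95-fold in TPM (adjusted p = 0.00328 and 0.000749), with rescaled differences of 0.078 (adjusted p = 0.614) and 0.32 (adjusted p = 0.094). Fuca1, alpha-fucosidase, was at 15.1, 11.3 and 11.2 TPM in control and 13.8, 15.6 and 14.8 TPM in overexpression libraries, with control 1 inside the range of the other group, and passed under neither scaling (0.23, adjusted p = 0.191, and -0.36, adjusted p = 0.0738). After rescaling, all overexpression libraries lay below all controls in Fuca1.

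Lgmn had the largest increase of the 33 genes on the log2(TPM + 1) scale. Legumain is an asparaginyl endopeptidase that cuts cathepsins into their mature chains and is abundant in macrophages. Lgmn was at 54.4, 48.2 and 47.5 TPM in control and 183, 182 and 151 TPM in overexpression libraries. Every overexpression library was far above the highest control. It rose 3.44-fold (log2 difference 1.76, 95% CI 1.51 to 2.01, adjusted p = 1.29e-05) and by 1.14 after rescaling (adjusted p = 7.53e-05), at rank 461 of 12404 among increases. On the minus strand of chromosome 12, the gene spans 102394084 to 102439813 (GRCm38). Grn encodes progranulin, a secreted protein that lysosomes cut into granulins. Grn was at 50.4, 54.3 and 45.9 TPM in control and 104, 113 and 91.4 TPM in overexpression libraries, which did not overlap. It rose 2.04-fold (log2 difference 1.01, adjusted p = 0.000118) and by 0.40 after rescaling (adjusted p = 0.00492). Tpp1, a tripeptidyl peptidase, rose 1.31-fold in TPM (adjusted p = 0.0101) with a rescaled difference of -0.23 (adjusted p = 0.0871). Ppt1, the thioesterase that removes palmitate from proteins, was at 36.4, 32.9 and 28.5 TPM in control and 36.4, 27.3 and 28.1 TPM in overexpression libraries. Overexpression 1 was level with the highest control, the TPM difference of Ppt1 was -0.093 (adjusted p = 0.577), and it was lower after rescaling (-0.70, adjusted p = 0.0058). Its exons share 129 bases with Cap1 on the opposite strand, a gene at 28.5 to 36.6 TPM in control and 57.4 to 82.7 TPM in overexpression libraries.

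Shares within the lysosomal set do not depend on how a library is scaled, and they showed a changed makeup. The 33 genes summed to 1873, 1898 and 1773 TPM in control and 2487, 2451 and 2274 TPM in overexpression libraries, or 0.185% and 0.240% of all TPM on average. The share of Psap in that sum was 38.1%, 37.9% and 39.2% in control and 25.9%, 24.5% and 28.6% in overexpression libraries. Psap thus gave up the most of the sum, and it stayed the largest component in every library. The share of Lgmn was 2.91%, 2.54% and 2.68% in control and 7.36%, 7.44% and 6.65% in overexpression libraries. Cd63 went from 2.68% ± 0.0836 to 5.76% ± 0.674 and Grn from 2.71% ± 0.136 to 4.26% ± 0.305 (SD, n = 3 each). Without overlap between the groups, 15 members had a larger share with overexpression and 7 a smaller one, and 11 overlapped. Such counts were not made for other sets of genes. Among all tested genes 22.2% were called higher and 24.0% lower after rescaling, so a changed makeup is not shown to be particular to these members. The 7 with a smaller share were Psap, Smpd1, Gaa, Ppt1, Npc1, Idua and Mcoln1. The shares add to 100% in each library, so a fall of Psap alone raises the others.

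**Figure D3:**
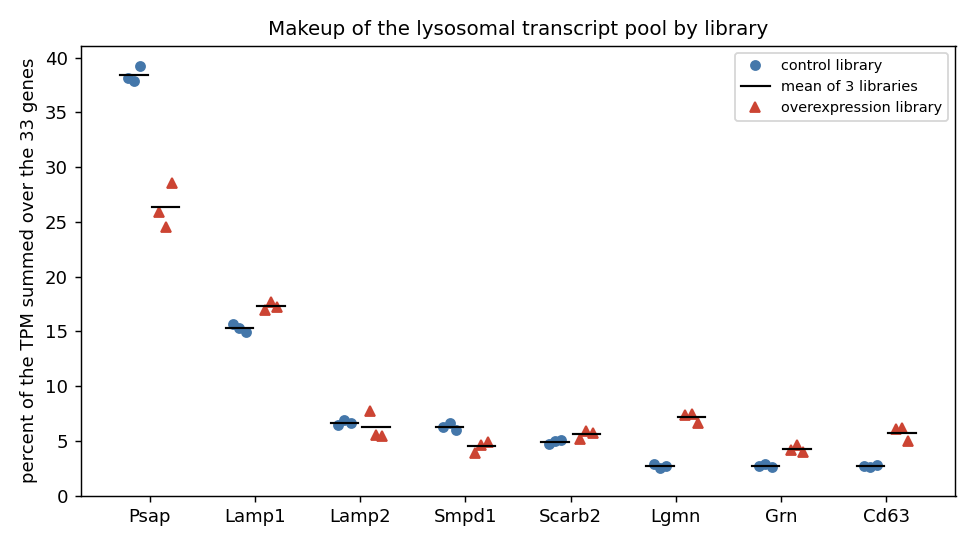
Share of 8 lysosomal genes in the TPM summed over all 33, per library, with control libraries as circles, overexpression libraries as triangles and the mean of 3 libraries as a line. Psap went from 38.4% to 26.3% on average and Lgmn from 2.71% to 7.15%, while Lamp2 overlapped between the groups.

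Other genes of the pathway, taken from lists that do not overlap the members, also went in both directions after rescaling, as all tested genes did. Among all tested genes 59.0% were higher and 9.09% lower in TPM, and 22.2% and 24.0% after rescaling (medians 0.55 and 0.014). Of 22 tested further lysosomal hydrolases 16 were higher and 1 lower in TPM and 5 and 5 after rescaling (medians 0.57 and 0.065). Galns, which removes sulfate from keratan sulfate, stood out, at 1.22, 1.74 and 1.51 TPM in control and 11.6, 15.1 and 12.3 TPM in overexpression libraries (log2 difference 2.49, adjusted p = 1.53e-05). Galns also rose after rescaling (2.01, adjusted p = 3.5e-05). Of 22 further membrane proteins 13 were higher and 0 lower in TPM, and 3 and 6 after rescaling (medians 0.37 and -0.22). Laptm5, which is made mainly in blood-derived cells, rose 3.89-fold and the amino acid transporter gene Slc36a1 rose 2.33-fold, both also after rescaling (adjusted p = 0.00138 and 0.0147). Of 15 genes of enzyme sorting 11 were higher and 0 lower in TPM, and 5 and 3 after rescaling (medians 0.64 and 0.040). Gnptab, which makes the mannose 6-phosphate tag, rose 2.39-fold and M6pr, a receptor for that tag, 2.05-fold, both also after rescaling (adjusted p = 0.00225 and 0.007).

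Cathepsins and subunits of the proton pump that acidifies the lysosome were set beside the members by their counts. The shares among all tested genes were 59.0% higher and 9.09% lower in TPM, and 22.2% and 24.0% after rescaling. Of 10 tested cathepsin genes 8 were higher and 1 lower in TPM, and 6 and 2 after rescaling (medians 0.95 and 0.35). Ctsz rose 3.31-fold and Ctsk 2.49-fold, both also after rescaling (adjusted p = 0.00047 and 0.00834). Of 18 pump genes 16 were higher and 0 lower in TPM, and 5 and 4 after rescaling (medians 0.76 and 0.15). Atp6ap2 rose 2.39-fold and also after rescaling (adjusted p = 0.00112), and Atp6ap1 rose 1.72-fold in TPM only (adjusted p = 0.187 after rescaling). Atp6v0a1, whose splicing the study followed, rose in TPM (log2 difference 0.82, adjusted p = 0.000263) and missed the threshold after rescaling (adjusted p = 0.156). Of 12 tested genes of TFEB and its regulators 5 were higher and 2 lower in TPM, and 0 and 6 after rescaling. Rraga, a GTPase of nutrient sensing, rose 1.92-fold and Tfe3 1.91-fold in TPM, and neither passed after rescaling (adjusted p = 0.0634 and 0.169). Differences between these lists and the members were not tested.

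Markers of macrophages were higher with overexpression as well. Of 17 listed markers 16 had a row, none was at 0 in every library, and all 16 were higher in TPM and 13 after rescaling. For these and the markers below, the shares among all tested genes were 59.0% higher and 9.09% lower in TPM. After rescaling they were 22.2% and 24.0%. The 16 macrophage markers summed to 522, 450.3 and 400.05 TPM in control 1, 2 and 3 and to 1528, 1213 and 869.6 TPM in overexpression 1, 2 and 3. Overexpression 3 had the lowest macrophage sum of its group and also the highest mitochondrial share, at 41.0%. It held the lowest value of its group in 18 of the 33 members, and in 6 of the 7 that rose under both scalings, Hexa being the exception. Its divisor in the rescaling was also the smallest of its group, at 1.16 against 1.24 and 1.33. How many of all tested genes were lowest there was not counted, so these counts show nothing particular to the members. Cd68, a macrophage lysosomal membrane protein, was at 10.8, 8.12 and 7.56 TPM in control and 47.9, 38.0 and 30.8 TPM in overexpression libraries. The ratio of Lgmn to Cd68 ranged from 5.05 to 6.28 in controls and from 3.82 to 4.92 under overexpression, and that of Grn to Cd68 from 4.68 to 6.69 and from 2.16 to 2.97. Cd68 therefore rose more than these members did, at 4.41-fold. The sum of the 16 macrophage markers rose 2.63-fold, which was less than Lgmn (3.44-fold) and more than Grn (2.04-fold). Other markers would thus give other ratios. Neutrophil markers (5 genes) summed to 5.13 to 7.08 TPM in control and to 34.5, 16.3 and 11.7 TPM in overexpression 1, 2 and 3. Of these markers 3 were tested, and 3 were higher in TPM and 0 after rescaling. The 8 lymphocyte markers did not reach a mean of 1 TPM in any case, and Cd3d and Cd3g were at 0 in all 3 control libraries. Of 8 endothelial markers 0 passed in TPM and 3 were lower after rescaling, and 7 of 10 fibroblast markers were higher and 1 lower in TPM, with 5 and 3 after rescaling. The part of these cell types in the results was not tested.

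**Figure D4:**
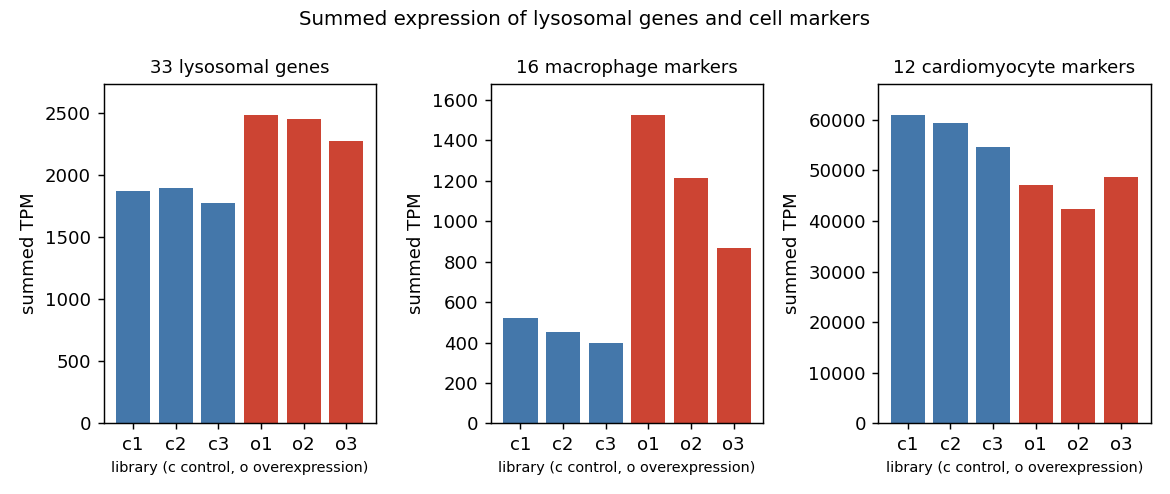
Summed TPM of the 33 lysosomal genes, of 16 macrophage markers and of 12 cardiomyocyte markers in each library, as bars from 0, with control libraries c1 to c3 and overexpression libraries o1 to o3. The macrophage sum is 400.05 to 522 TPM in control and 869.6 to 1528 TPM in overexpression libraries, while the cardiomyocyte sum is lower in the latter.

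Gla, Ids and Lamp2 lie on the X chromosome, and overexpression 1 was the male library. Without it the TPM difference was 0.076 for Lamp2 (adjusted p = 0.507), 0.20 for Ids (adjusted p = 0.251) and 0.83 for Gla (adjusted p = 0.0112). The call of Gla therefore held within the remaining libraries, which had Xist above 0 throughout. Lamp2 had its highest value in overexpression 1, at 193 TPM, whereas Gla and Ids had theirs in overexpression 2, at 3.86 and 21.8 TPM.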

How the data were processed

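The 6 libraries, 3 per genotype label, were made from polyadenylated left ventricular RNA of mice. The authors deposited TPM per gene symbol, a unit named in the file name, with column totals of at least 999661. Per the submitters' processing notes, the tools included STAR-Fusion 1.11.0, GATK 4.2.6.1, edgeR 3.40.2 and featureCounts 2.0.3, and the build named is mm8. Aligner and annotation were not given in the sources used here. Columns were matched to samples by the number in the titles and the genotype labels set the groups. The labels do not state that each sample is a different animal, so p-values measure the spread between these libraries.

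Testing was limited to the 12404 of 31273 genes whose mean reached 1 TPM. log2(TPM + 1) was compared by limma 3.58.1 (R 4.3.3), using its two-sided moderated test with a trended prior, Benjamini-Hochberg adjustment over every tested gene and a threshold of 0.05. Differences on this scale understate changes of low genes, and folds are ratios of mean TPM. For the rescaling, gene values were set against their geometric means over the libraries, and the median of these ratios (genes above 0 throughout) became the divisor of a library (control libraries 0.782 to 0.841, overexpression libraries 1.16 to 1.33). Read numbers were estimated from the steps between low values, using exon lengths of GENCODE M21 (GRCm38) and a tolerance of 0.02 reads. They are approximate wherever the authors used another length. Among the members the estimates were whole numbers only for Hexa and Gm2a, so those of the other members, Gla and Sgsh included, are approximate. On simulated libraries (dispersion 0.02, 11666 genes, overexpression against control) the TPM test recovered 100% of genes raised 2-fold and 96% of genes lowered to 0.5 of their level, and 10 of 208 calls were of unchanged genes. Only 200 genes were changed there, equally many upward and downward. The simulation thus lacked the shift of the median seen in these libraries, and it cannot tell how reliable the TPM calls are under that shift.

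All members are named. Values in every library are given for members called the same way under both scalings or not called in TPM, the highest of each role and X-linked members. From each further pathway list the 2 genes with the smallest p are named, with Rbm20, Esr1 and Atp6v0a1, except that 1 gene is not reported here. Genes chosen after their values were seen were Xist, Ddx3y, Cd68, Cd3d, Cd3g, Slc26a1, Dgkq and Cap1. The members and lists were chosen with earlier results of these data known. Alternatives were other scalings, pseudocounts, filters and limma settings, a fold threshold, and each library left out in turn. Figures used Python 3.11.15 and matplotlib 3.10.9.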

Additional observations from a re-analysis of the deposited data

How the results depend on the processing

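The scaling decided most counts. In place of 20 members higher and 1 lower in TPM, rescaling by median of ratios gave 7 and 8 and quantile normalization 8 and 7, and removing mitochondrially encoded genes gave 15 and 5. A log2 difference of at least 1 as well left 6 higher and 0 lower in TPM, and 1 and 1 after rescaling. Over all 12404 tested genes, 7316 higher and 1127 lower became 2755 and 2972 after rescaling and 2963 and 2816 under quantile normalization. The fold threshold left 2456 and 375 of all genes in TPM, and 742 and 1023 after rescaling. Without mitochondrially encoded genes 5382 were higher and 1796 lower of 13420 tested. The members' median of 0.50 became -0.072 after rescaling, -0.071 under quantile normalization, 0.25 without mitochondrially encoded genes and 0.38 with a pseudocount of 5. With 1 library left out it was 0.48 to 0.55, and 18 to 22 members were higher and 1 lower. After rescaling, 5 to 7 were higher and 6 to 9 lower with 1 library left out. In the same fits 12273 to 12508 genes were tested. Of these, 6198 to 7212 were higher and 950 to 1088 lower in TPM, and 2007 to 2647 and 2407 to 2841 after rescaling. Differences that changed sign with a call on either side were, after rescaling and under quantile normalization, those of Mcoln1 (-0.42 and -0.42), Npc1 (-0.54 and -0.54), Lipa (-0.14 and -0.083), Neu1 (-0.065 and -0.086), Ids (-0.36 and -0.31), Naglu (-0.026 and -0.071) and Tpp1 (-0.23 and -0.16). After rescaling alone they were those of Lamp1 (-0.072), Scarb2 (-0.058) and Ctsa (-0.090). No paired analysis was possible because the labels give the groups no shared replicate numbers. Few reads limit Gla and Sgsh, with an estimated 64 and 98 reads in their lowest libraries.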
